A study of Rattus norvegicus with 18 samples.

Results

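The MYC, MAX, MXD and MLX network is a family of basic helix-loop-helix leucine zipper transcription factors that pair with each other on DNA. Its genes were followed by symbol in RNA-seq of Rat1 fibroblasts that lack functional endogenous myc. Of 10 genes listed for the network, 8 were in the expression table of 13188 genes, namely Myc, Mycn, Max, Mxd1, Mxd3, Mxd4, Mnt and Mlx. The other 2, Mga and Mlxip, were not analysed here.

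All 18 libraries came from HO15.19, a myc-/- line of rat fibroblasts, in 6 groups of 3. A set of 6 libraries held myc-/- cells transfected with control siRNA (myc-/- siCtrl) and untransfected cells carrying stably introduced human MYC (myc-/- + MYC). A set of 12 libraries held untransfected myc-/- cells and myc-/- + MYC cells given siCtrl or 1 of 2 siRNAs against the aryl hydrocarbon receptor gene Ahr (siAHR-2 and siAHR-5). The paper describes the sequenced cells without MYC as expressing vector. Transfected cells received 40 nM siRNA and were harvested 48 h later, human MYC was driven by a viral vector rather than by the rat gene's own promoter, and the sources used here do not say whether the lines were clones or pools. The sets had been put on different scales, with library medians of 11.00 to 11.05 in the set of 6 and 11.61 to 11.68 in the set of 12, so groups were compared only within a set. The comparisons asked what changed with MYC and, in cells with MYC, with each siRNA against Ahr. By the labels, the siRNA of the set of 6 was given to the cells without MYC and that of the set of 12 to the cells with MYC, so that MYC and transfection changed together and cannot be told apart in either. The values of the myc-/- siCtrl libraries are, however, headed only as controls, and those of the untransfected myc-/- libraries stand among the siRNA libraries. Whether these transfection labels are right was not tested, and if they were exchanged, transfection would not differ within either MYC comparison.

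MYC binds DNA only as a pair with MAX, at short sequences called E-boxes, and recruits acetyltransferase complexes that raise transcription. MXD proteins and MNT compete for MAX and for the same E-boxes, and bring in SIN3 and histone deacetylases, which lower it. MLX is a second shared partner, which pairs with the glucose-responsive factors MLXIP and MLXIPL and also with MXD1, MXD4 and MNT, while MGA links MAX to a noncanonical Polycomb complex.

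With MYC, Mxd1 rose by a log2 fold change of 0.94 ± 0.0555 (SE) in the set of 6 and of 0.88 ± 0.0628 in the set of 12, and the Myc row of the table fell, by log2 fold changes of −1.26 and −2.68. Mxd3, which stood lower with MYC in both sets, passed the cutoffs in the set of 6 only. Mxd4 rose by 1.16 in the set of 6 and stood lower, at −0.43, in the set of 12. A gene was called changed at a fold of at least 1.5 (0.585 on the log2 scale) and an adjusted p of at most 0.01 in limma, with Benjamini-Hochberg adjustment over all 13188 genes. The groups held 3 libraries each, and nothing in the labels says that these came from separate cultures, so the p-values measure only the spread between libraries, which may be technical. In bulk RNA, a lower level in every cell and fewer cells with the transcript cannot be told apart.

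**Figure D1:**
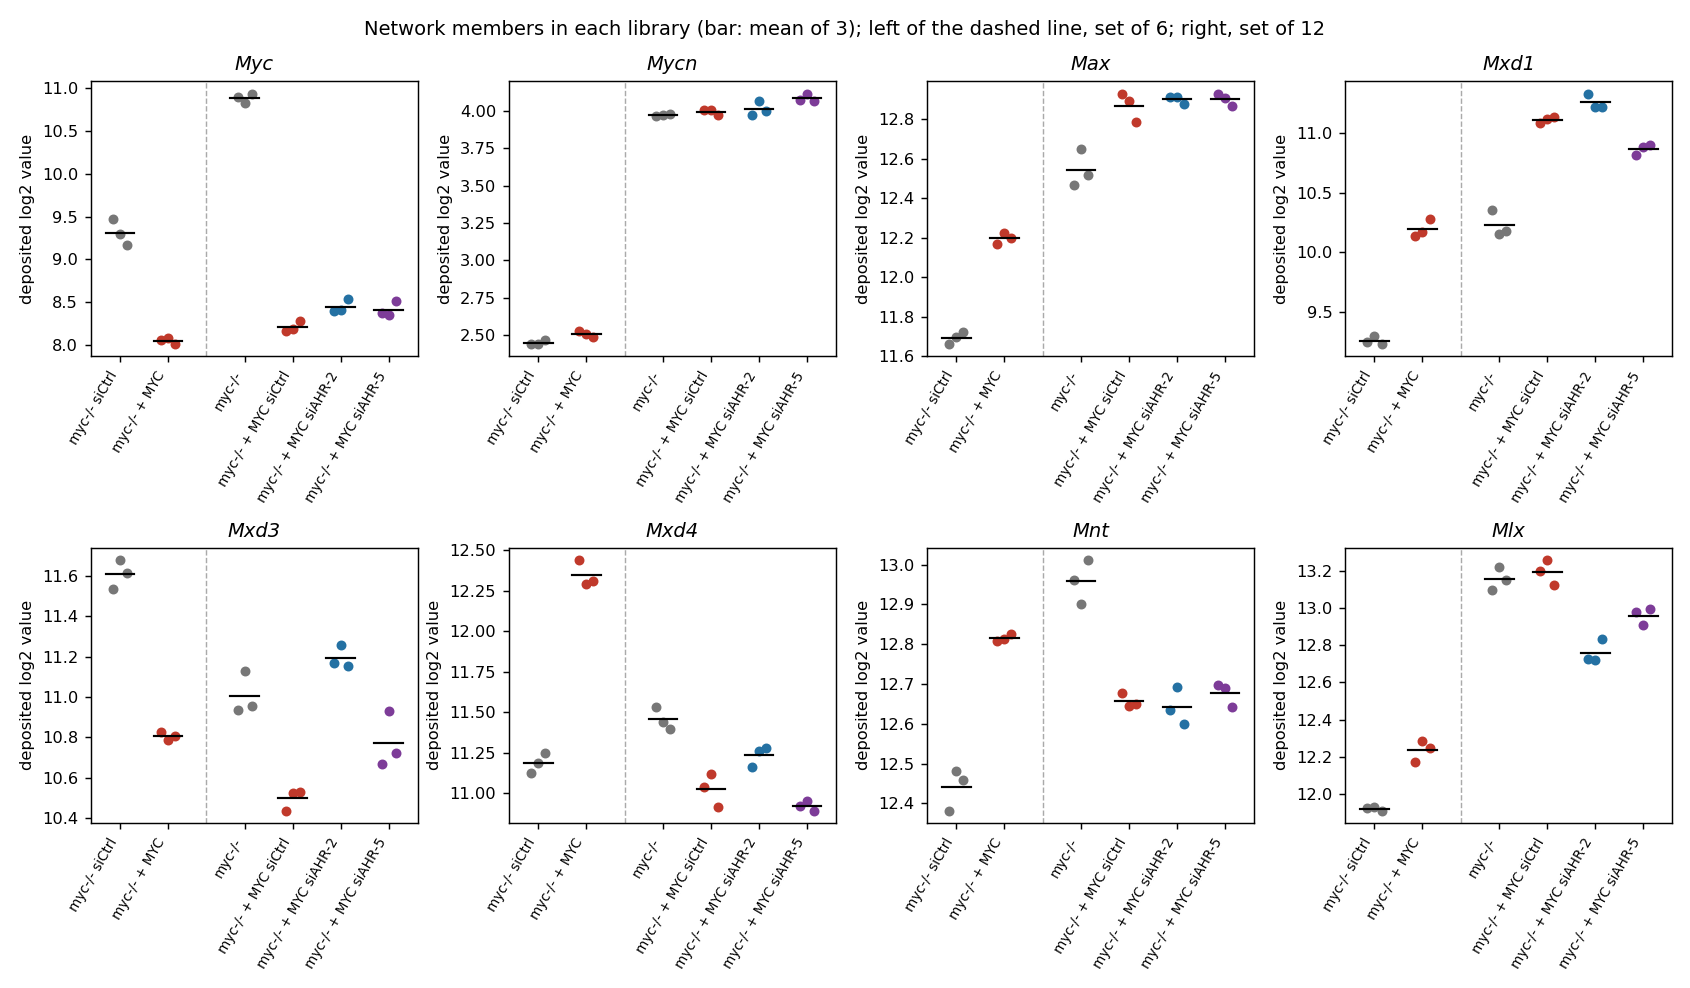
Deposited log2 value of each network gene in each of the 18 libraries (points) with the mean of each group of 3 (bars), and the set of 6 left of the dashed line. Mxd1 is higher with MYC on both sides of the line, whereas Mxd4 is higher with MYC on the left (12.29 to 12.44 against 11.12 to 11.25) and lower on the right (10.91 to 11.12 against 11.40 to 11.53).

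The check of the siRNA target came first. Ahr, which encodes a ligand-activated transcription factor, stood at 13.34, 13.26 and 13.22 in myc-/- + MYC siCtrl, at 11.97, 11.97 and 12.03 with siAHR-2, and at 11.95, 11.76 and 11.94 with siAHR-5. It fell by 1.29 ± 0.0364 with siAHR-2 (adjusted p = 2.37e-04, limma) and by 1.39 ± 0.0612 with siAHR-5 (adjusted p = 2.16e-04, limma). Of 11 fibroblast markers, all in the table, 1 rose and 5 fell with MYC in the set of 6, beside 12.5% and 14.3% of all genes. In the set of 12, 0 rose and 7 fell, beside 10.8% and 14.7% of all genes. Besides collagen and receptor genes named below, the matrix genes Fn1 (−1.76 and −1.80) and Lum (−1.16 and −0.95) and the surface protein gene Thy1 (−1.15 and −2.20) fell in both sets. The marker Dcn had −0.33 in the set of 6 and fell by 0.90 in the set of 12. It stood at 11.19 to 11.77 in the set of 6 and at 6.66 to 7.78 in the set of 12. Col1a2 had low values, at 3.95 to 4.13 in the set of 6 and 3.64 to 3.95 in the set of 12. Its differences of −0.13 and −0.16 were not called. Values above 0 in the set of 6, other than that of Col3a1 below, included Pdgfra at 0.25 (adjusted p = 3.70e-05, limma), S100a4 at 0.17 (adjusted p = 4.64e-04, limma) and Vim, of the cytoskeleton, at 0.13 (adjusted p = 0.0154, limma), none of them called, against −0.61, −0.37 and −0.17 in the set of 12, where Pdgfra was called. With siAHR-2 none of the 11 was called, beside 0.47% of all genes. With siAHR-5, where 2.33% of all genes were called, Thy1 rose by 0.75 (adjusted p = 2.58e-04, limma). Vim differed by −0.36 with siAHR-2 (adjusted p = 5.64e-04, limma) and by −0.48 with siAHR-5 (adjusted p = 3.62e-04, limma), below the fold cutoff. The log2 of their summed level was 20.82 to 20.84 in myc-/- siCtrl and 19.90 to 19.99 in myc-/- + MYC, and 21.95 to 22.18 in myc-/- and 20.23 to 20.25 in myc-/- + MYC siCtrl, with 19.99 to 20.03 for siAHR-2 and 19.96 to 19.97 for siAHR-5. Of the epithelial markers 4 of 5 were in the table, with a summed level of 8.18 to 8.25 and 8.63 to 8.81 in the set of 6 and of 7.76 to 7.92 and 8.77 to 9.11 in the MYC comparison of the set of 12. Krt8, a keratin, was the one called higher in both (1.70 and 1.17). Epcam stayed at 1.22 to 1.27 in the set of 6 and at 2.35 to 2.42 in the set of 12. Krt19, another keratin, stood at 7.30 to 7.73 in the set of 6, with a difference of −0.27 with MYC (adjusted p = 0.0107, limma), and at 2.42 to 2.46 in the set of 12. The blood and endothelial markers, 3 of 4 in the table, had none called with MYC. In the set of 6 Ptprc lay between 4.46 and 4.65, Cdh5 between 6.48 and 7.18 and Pecam1 between 6.47 and 6.82. The set of 12 had Ptprc at 2.84 to 2.88, Cdh5 at 4.70 to 4.97 and Pecam1 at 7.09 to 7.57. With MYC in the set of 6, Cdh5 differed by −0.54 (adjusted p = 1.09e-05, limma) and Ptprc by −0.15 (adjusted p = 0.00156, limma). Pecam1 differed by 0.20 there (adjusted p = 0.0126, limma). In the set of 12 Ptprc differed by −0.04 (adjusted p = 0.00232, limma). The part of these marker shifts in the results on the network was not tested.

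Start-site sequences of 6 of the 8 genes, matched by symbol, were taken from RefSeq (build GRCr8, 250 bases before to 50 after the annotated start). In the set of windows used here, Myc and Mycn had no entry by symbol, which does not show that the annotation lacks them. Sequences are shown for Max as the shared partner, for Mxd4 and Mnt, whose response differed between the sets, and for Mxd1, which rose in both. The canonical E-box CACGTG, its own reverse complement, is in capitals where it occurs.
Max, chr6:101395241-101395540, minus strand: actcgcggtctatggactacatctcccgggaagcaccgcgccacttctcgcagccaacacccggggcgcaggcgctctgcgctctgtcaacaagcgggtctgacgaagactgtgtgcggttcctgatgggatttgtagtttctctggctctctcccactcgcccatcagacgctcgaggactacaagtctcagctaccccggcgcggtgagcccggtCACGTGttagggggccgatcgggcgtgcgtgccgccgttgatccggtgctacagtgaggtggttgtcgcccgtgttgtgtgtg
Mxd4, chr14:80786531-80786830, plus strand: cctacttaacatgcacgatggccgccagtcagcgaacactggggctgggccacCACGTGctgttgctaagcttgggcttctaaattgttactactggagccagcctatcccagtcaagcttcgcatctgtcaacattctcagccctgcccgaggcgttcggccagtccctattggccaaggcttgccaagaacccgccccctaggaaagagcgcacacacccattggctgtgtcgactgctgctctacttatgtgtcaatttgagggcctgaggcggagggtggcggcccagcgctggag
Mnt, chr10:60197709-60198008, plus strand: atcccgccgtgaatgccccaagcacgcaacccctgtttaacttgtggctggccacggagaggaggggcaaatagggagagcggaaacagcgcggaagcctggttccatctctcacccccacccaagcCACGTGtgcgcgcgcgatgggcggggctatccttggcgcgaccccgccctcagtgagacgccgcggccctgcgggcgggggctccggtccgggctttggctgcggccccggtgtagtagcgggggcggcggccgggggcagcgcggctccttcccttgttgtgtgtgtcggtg
Mxd1, chr4:120675080-120675379, minus strand: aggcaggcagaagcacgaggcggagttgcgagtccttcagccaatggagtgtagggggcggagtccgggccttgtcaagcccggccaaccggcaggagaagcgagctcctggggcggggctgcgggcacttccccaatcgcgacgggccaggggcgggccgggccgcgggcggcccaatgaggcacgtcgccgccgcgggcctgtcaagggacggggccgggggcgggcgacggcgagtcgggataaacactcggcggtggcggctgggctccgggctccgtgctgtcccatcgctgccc

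The E-box begins at position −33 from the start in Max, −197 in Mxd4 and −123 in Mnt, and at −70 in the Mlx window, so that 4 of the 6 windows held it. Mxd1 and Mxd3, which had opposite signs with MYC, held no CACGTG and none of its searched variants, which were CACGCG on either strand, likewise CAAGTG, and lastly CACCTG. Over 33469 such windows of the rat genome, CACGTG occurred in 6.42%, CACGCG in 8.5%, CAAGTG in 14.1% and CACCTG in 18.8%. Over the 10312 windows of genes in the table the shares were 8.73% for CACGTG, 15.5% for CACGCG, 11.2% for CAAGTG and 18.6% for CACCTG. A match in these letters is a description of the window and no measure of binding, which was not measured here.

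Myc, the gene of the knockout, gave a signal in every library. In the set of 6 it stood at 9.47, 9.29 and 9.16 in myc-/- siCtrl and at 8.05, 8.08 and 8.01 in myc-/- + MYC. In the other set it stood at 10.90, 10.82 and 10.94 in myc-/- and at 8.16, 8.19 and 8.27 in myc-/- + MYC siCtrl. The cells without MYC were thus the higher ones in both sets, and the groups did not overlap. The log2 fold change was −1.26 ± 0.0776 in the set of 6 (adjusted p = 4.21e-08, limma) and −2.68 ± 0.0572 in the set of 12 (adjusted p = 6.02e-07, limma), which are falls of 2.40-fold and 6.41-fold. The table gives 1 value per gene and does not show which part of Myc the reads came from, and whether reads of human MYC were counted on the rat gene was not tested, so that this row checks neither the knockout nor the transgene.

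The fall in the Myc row differed between the sets by −1.42 (95% interval −1.64 to −1.19, adjusted p = 2.85e-08, limma). Under the siRNAs against Ahr, Myc stood at 8.39, 8.40 and 8.53 with siAHR-2 and at 8.37, 8.34 and 8.51 with siAHR-5. Each of these 6 libraries was above the siCtrl libraries, but the differences of 0.23 (adjusted p = 0.0317, limma) and 0.20 (adjusted p = 0.0528, limma) did not pass the cutoffs. The 3 genes whose values ran most like those of Myc over the 12 libraries of that set were Cxcl12, Gpnmb and Vopp1, each with a Pearson r of 0.998. In the other 6 libraries their r with Myc was 0.990, 0.994 and 0.986. These are descriptions over libraries that share groups and a scale.

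Mycn, which encodes the N-MYC protein, had low values throughout, at 2.44 to 2.53 in the set of 6 and 3.97 to 4.11 in the set of 12. Its difference with MYC was 0.06 ± 0.0186 in the set of 6 (adjusted p = 0.0171, limma) and 0.02 in the set of 12 (adjusted p = 0.284, limma). With siAHR-5 it was 0.09 (adjusted p = 0.0132, limma), and no comparison called it. The depth behind such low values is unknown.

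Max encodes the partner that MYC needs on DNA and that MXD proteins and MNT compete for. Its values were 11.66, 11.70 and 11.72 in myc-/- siCtrl and 12.17, 12.22 and 12.20 in myc-/- + MYC. Those of the set of 12 were 12.47, 12.65 and 12.52 in myc-/- and 12.93, 12.89 and 12.79 in myc-/- + MYC siCtrl. Cells with MYC were higher in both sets without overlap, by 0.50 ± 0.0355 (adjusted p = 1.41e-07, limma) and 0.32 ± 0.0615 (adjusted p = 0.00434, limma). Both differences were below the fold cutoff of 1.5, with sizes of 1.42-fold and 1.25-fold, and they differed from each other by −0.18 (adjusted p = 0.0466, limma), which missed the cutoffs. With the siRNAs against Ahr the difference was 0.03 for either one, with intervals of −0.07 to 0.13 and −0.07 to 0.14, and median centring turned the sign for siAHR-5. The genes most like Max in the set of 12 were Amt, Set and Chst10, each with r = 0.971, and with r of 0.987, 0.914 and 0.879 in the set of 6.

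**Figure D2:**
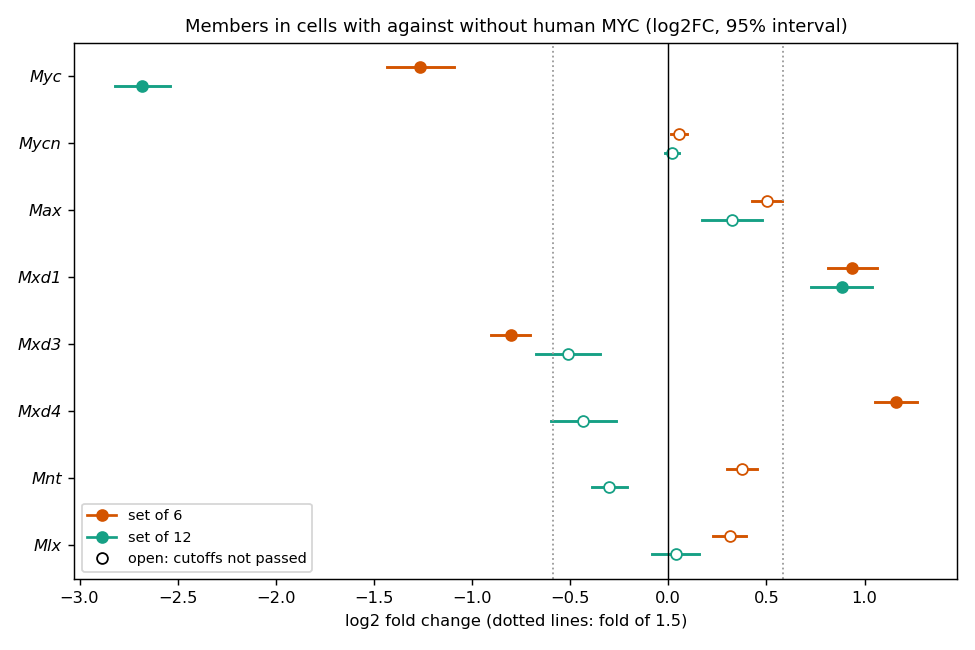
Difference of each network gene between cells with and without human MYC (log2 fold change, 95% interval) in the set of 6 and the set of 12; dotted lines mark a fold of 1.5 and open points did not pass the cutoffs. Myc and Mxd1 are filled in both sets, and Mxd4 lies at 1.16 in one and −0.43 in the other.

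Mxd1 encodes a repressor that pairs with MAX and is known for its appearance as cells leave the cycle and differentiate. It stood at 9.25, 9.29 and 9.23 in myc-/- siCtrl against 10.14, 10.17 and 10.28 in myc-/- + MYC. The set of 12 gave 10.35, 10.16 and 10.18 in myc-/- against 11.09, 11.12 and 11.13 in myc-/- + MYC siCtrl. All 6 libraries with MYC were above all those without it in their set. The rise was 1.92-fold in the set of 6 (adjusted p = 3.04e-08, limma) and 1.85-fold in the set of 12 (adjusted p = 5.84e-05, limma). The difference between the rises was −0.05, with a 95% interval of −0.24 to 0.13, and median centring turned its sign.

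Mxd3 encodes another MAX-binding repressor, one known from dividing cells. Its values were 11.54, 11.68 and 11.62 in myc-/- siCtrl and 10.83, 10.79 and 10.81 in myc-/- + MYC. The set of 12 had 10.93, 11.13 and 10.96 in myc-/- and 10.44, 10.53 and 10.53 in myc-/- + MYC siCtrl. The libraries with MYC were the lower ones in both sets, without overlap. Mxd3 fell by 0.80 ± 0.0452 in the set of 6 (adjusted p = 2.00e-08, limma), while its difference of −0.51 ± 0.0661 in the set of 12 (adjusted p = 8.06e-04, limma) was below the fold cutoff. The test of the difference between the sets gave 0.29 (adjusted p = 0.00774, limma), also below that cutoff.

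Set side by side, Mxd1 stood higher and Mxd3 lower with MYC in both sets. The log2 value of Mxd1 minus that of Mxd3 in the same library was −2.35 ± 0.0554 (SD, n = 3) in myc-/- siCtrl and −0.61 ± 0.0784 in myc-/- + MYC, a shift of 1.74. In the set of 12 it went from −0.78 ± 0.196 in myc-/- to 0.62 ± 0.0304 in myc-/- + MYC siCtrl, a shift of 1.39. With siAHR-2 and siAHR-5 it was 0.07 ± 0.101 and 0.10 ± 0.121, below every siCtrl library. The parts were unlike: Mxd1 and Mxd3 differed from siCtrl by 0.14 and 0.70 with siAHR-2, and by −0.25 and 0.28 with siAHR-5. The same siCtrl libraries serve both siRNA comparisons and the MYC comparison of this set, so these shifts are not independent. The pair was chosen after its values were seen, so the values of Mxd1 minus Mxd3 are given without a test. Because transcript length was not taken into account, only their shifts between groups can be read.

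**Figure D3:**
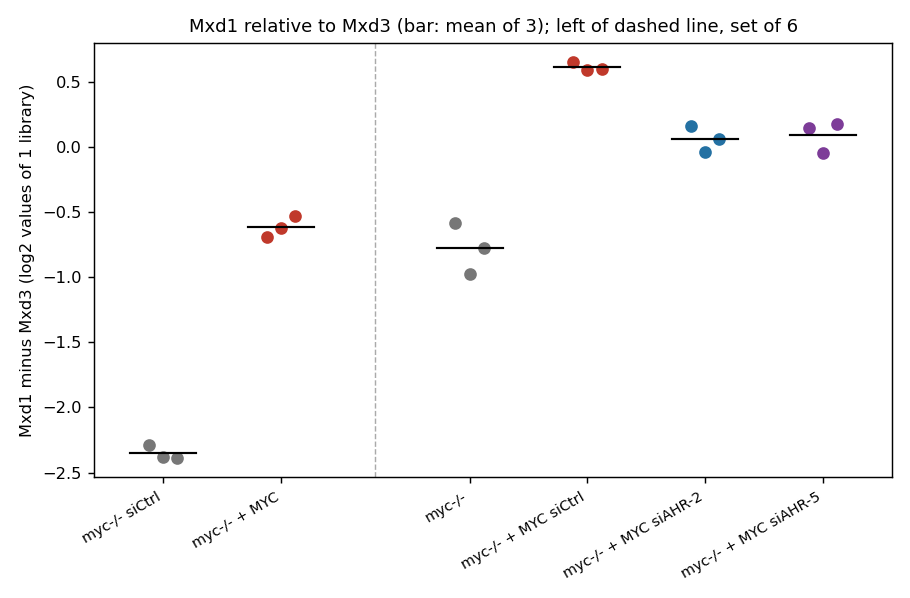
Log2 value of Mxd1 minus that of Mxd3 within each library (points) with the mean of each group of 3 (bars), the set of 6 left of the dashed line. The mean goes from −2.35 to −0.61 with MYC in the set of 6 and from −0.78 to 0.62 in the set of 12, and lies at 0.07 and 0.10 with siAHR-2 and siAHR-5.

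Mxd4 encodes a MAX-binding repressor that can also pair with MLX. It stood at 11.12, 11.19 and 11.25 in myc-/- siCtrl and at 12.44, 12.29 and 12.31 in myc-/- + MYC. Its values in the set of 12 were 11.53, 11.44 and 11.40 in myc-/- and 11.04, 11.12 and 10.91 in myc-/- + MYC siCtrl. The libraries with MYC were thus all higher in one set and all lower in the other. The rise of 1.16 ± 0.0490 in the set of 6 was 2.24-fold (adjusted p = 1.75e-09, limma), and the difference of −0.43 ± 0.0675 in the set of 12 did not reach the fold cutoff (adjusted p = 0.00182, limma). The difference between the sets was −1.59 (95% interval −1.78 to −1.41, adjusted p = 9.84e-10, limma), the largest among the 8 genes.

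Mnt encodes a widely expressed MAX-binding repressor that also pairs with MLX. Its values were 12.38, 12.48 and 12.46 in myc-/- siCtrl and 12.81, 12.81 and 12.83 in myc-/- + MYC. Those of the set of 12 were 12.96, 12.90 and 13.01 in myc-/- and 12.68, 12.64 and 12.65 in myc-/- + MYC siCtrl. As for Mxd4, the groups did not overlap and the order turned between the sets. Neither the difference of 0.38 ± 0.0348 (adjusted p = 1.52e-06, limma) nor that of −0.30 ± 0.0362 (adjusted p = 5.86e-04, limma) reached the fold cutoff, whereas the difference between them did, at −0.68 (95% interval −0.80 to −0.56, adjusted p = 1.08e-07, limma). For Mxd4, Mnt and Myc alike, this contrast between the sets cannot be told apart from the siRNA having been given to the opposite cells, where the transfection labels are right. If the labels were exchanged, transfection would differ between the sets instead. Under either reading, anything else that differed between the sets, such as their scale, changed with this contrast and cannot be told apart from it.

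Mlx encodes the partner of the glucose-responsive branch. It stood at 11.92, 11.93 and 11.91 in myc-/- siCtrl and at 12.17, 12.29 and 12.25 in myc-/- + MYC, a difference of 0.31 ± 0.0379 (adjusted p = 1.54e-05, limma) below the fold cutoff. Its set of 12 values were 13.10, 13.22 and 13.15 in myc-/- and 13.20, 13.26 and 13.12 in myc-/- + MYC siCtrl. Those groups overlapped, with a difference of 0.04 and an interval of −0.08 to 0.16.

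Counted over the network, 4 of 8 genes were called with MYC in the set of 6, where 26.8% of all genes were called. The 2 that rose compare with 12.5% of all genes, and the 2 that fell with 14.3%. In the set of 12, 2 of 8 were called against 25.5% of all genes, 1 by a rise (10.8%) and 1 by a fall (14.7%). Groups were free of overlap for 8 of 8 genes in the set of 6, as for 78.8% of all genes, and for 6 of 8 in the set of 12, as for 70.5%. The median size of the log2 fold change was 0.65 over the 8 genes and 0.29 over all genes in the set of 6, and 0.38 and 0.28 in the set of 12. The difference between the sets was called for 3 of 8 genes and for 16.5% of all. These shares set the scale on which the counts over 8 genes are to be read.

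**Figure D4:**
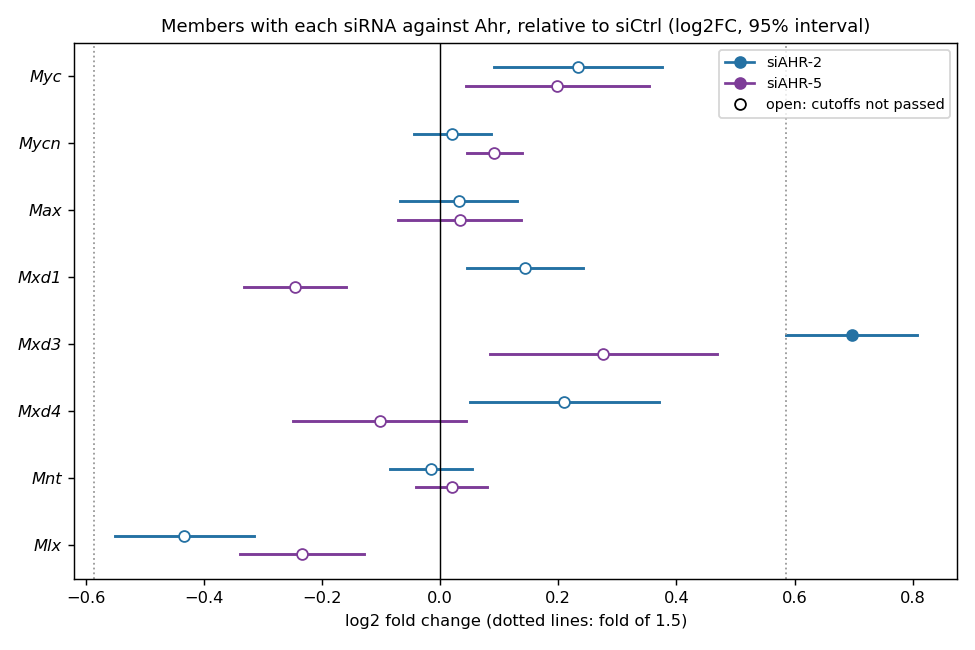
Difference of each network gene between myc-/- + MYC cells given an siRNA against Ahr and those given siCtrl (log2 fold change, 95% interval); dotted lines mark a fold of 1.5 and open points did not pass the cutoffs. Mxd3 with siAHR-2, at 0.70, is the filled point, and Mlx lies at −0.43 and −0.23.

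Among the siRNA comparisons, the repressor Mxd3 was called with siAHR-2, and no network gene was called with siAHR-5. Mxd3 stood at 11.17, 11.26 and 11.15 with siAHR-2 and at 10.67, 10.93 and 10.72 with siAHR-5, against 10.44 to 10.53 with siCtrl. Both siRNAs lay above siCtrl without overlap. The rise was 0.70 ± 0.0442 (adjusted p = 6.68e-04, limma) with siAHR-2, which is 1.62-fold, and the difference with siAHR-5 was 0.28 ± 0.0771 (adjusted p = 0.0370, limma). The siRNAs differed from each other by −0.42 for Mxd3 (adjusted p = 0.00864, limma), below the fold cutoff. For Ahr itself they differed by −0.11 (adjusted p = 0.211, limma). Whether effects of either siRNA apart from Ahr play a part was not tested.

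Mlx was lower with both siRNAs. It stood at 12.73, 12.72 and 12.83 with siAHR-2 and at 12.98, 12.91 and 12.99 with siAHR-5, all below the 13.12 to 13.26 of siCtrl. The differences were −0.43 ± 0.0471 (adjusted p = 0.00266, limma) and −0.23 ± 0.0418 (adjusted p = 0.00832, limma), and neither reached the fold cutoff. Both comparisons use the same siCtrl libraries, so they are not independent of each other.

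Mxd1 and Mxd4 took opposite signs with the siRNAs. Mxd1 stood at 11.33, 11.22 and 11.22 with siAHR-2, a difference of 0.14 (adjusted p = 0.0453, limma), and at 10.82, 10.89 and 10.90 with siAHR-5, a difference of −0.25 (adjusted p = 0.00365, limma). Mxd4 stood at 11.16, 11.26 and 11.28 with siAHR-2, a difference of 0.21 (adjusted p = 0.0609, limma), and at 10.92, 10.95 and 10.89 with siAHR-5, a difference of −0.10 (adjusted p = 0.228, limma). None of the 4 passed the cutoffs. Compared directly, siAHR-5 lay below siAHR-2 by 0.39 log2 units for Mxd1 (adjusted p = 0.00170, limma) and by 0.31 for Mxd4 (adjusted p = 0.00272, limma), without overlap and below the fold cutoff. Mnt differed from siCtrl by −0.02 and 0.02, with intervals of −0.09 to 0.05 and −0.04 to 0.08, and median centring turned the sign for siAHR-5.

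In counts, 1 of 8 genes was called with siAHR-2, where 0.47% of all genes were called, and 0 of 8 with siAHR-5, where limma called 2.33% and 5 of the 8, and 47.8% of all genes, had an unadjusted p below 0.05. At an adjusted p below 0.05 with no fold cutoff, 4 of 8 passed with siAHR-2 (29.3% of all genes) and 4 of 8 with siAHR-5 (39.2%). The groups did not overlap for 5 of 8 genes with siAHR-2 (43.3% of all) and for 5 of 8 with siAHR-5 (50.5%). The median size of the difference was 0.18 over the 8 genes and 0.074 over all genes with siAHR-2, and 0.15 and 0.10 with siAHR-5. Between siAHR-5 and siAHR-2, limma called 0 of 8 genes and 2.18% of all, with 4 of the 8, and 46.8% of all genes, at an unadjusted p below 0.05.

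Beyond the 8 genes, 112 of 128 listed genes of the surrounding pathway were in the table. With MYC, 25 of them rose and 14 fell in the set of 6, beside the 12.5% and 14.3% of all genes given above. In the other set 29 rose and 14 fell, beside 10.8% and 14.7% of all. A rise in both sets was called for 20 (6.87% of all genes) and a fall in both for 10 (8.91%), and 0 were called in opposite directions (0.341%). At an unadjusted p below 0.05 in limma, 92 of the 112 passed in the set of 6, where 77.5% of all genes did, and 88 in the set of 12, where 67.3% did. Over all genes the median log2 fold change was −0.0038 and −0.00014, beside which the medians of the lists stand. The counts of rises and falls in each list below are likewise to be read beside the shares of all genes given here.

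The closest relatives of the network were Mxi1, a MAX-binding repressor, and Mlxipl, which encodes the glucose-responsive partner of MLX, the 2 of 4 listed that were in the table. Mxi1 rose by 0.76 ± 0.0424 in the set of 12 (adjusted p = 2.12e-05, limma), and its value in the set of 6 was 0.02 (adjusted p = 0.603, limma). The difference between the sets was 0.74 (adjusted p = 1.64e-07, limma). Mlxipl had low values, at 1.08 to 1.13 in the set of 6 and 0.76 to 0.80 in the set of 12, below those of Mycn, and its differences with MYC were 0.04 (adjusted p = 0.00202, limma) and −0.0023, from which no lack of change can be read.

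Among cofactors that MYC binds or recruits, 15 of 17 were in the table, with 3 rising and 0 falling with MYC in the set of 6, 6 rising and 0 falling in the set of 12, and medians of 0.21 and 0.36. Kat2a, an acetyltransferase, rose by 1.19 and 1.06. The ATPases Ruvbl1 and Ruvbl2 of the chromatin remodelling complexes rose by 1.03 and 0.93 and by 0.99 and 1.24. These 3 were the cofactors called in both sets.

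On the side of the repressors, 15 of 18 SIN3, HDAC and NCOR subunits were in the table, of which 3 rose and 0 fell in the set of 6 and 2 rose and 1 fell in the set of 12, with medians of 0.14 and 0.0046. Hdac2, a histone deacetylase, rose by 0.99 and 0.96, and Arid4a, a SIN3 complex subunit, by 1.16 and 0.77. Ing1, a chromatin reader of the same complex, fell by 0.78 in the set of 12 and had a value of −0.52 in the set of 6. Sin3b, a scaffold of the complex, had values of 0.24 and −0.37, called in neither set, and a called difference between them of −0.60 (adjusted p = 4.27e-06, limma). All 10 listed subunits of PRC1.6, the Polycomb complex of MGA, were in the table, of which 1 rose and 1 fell in the set of 6 and 0 rose and 2 fell in the set of 12, with medians of −0.038 and 0.078. Rnf2, its ubiquitin ligase, was lower in both sets (−0.92 and −0.79). Tfdp2, a partner of E2F factors, rose by 0.68 in the set of 6 and had a value of 0.52 in the set of 12.

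Genes of MYC protein turnover numbered 16 of 22 in the table, of which 3 rose and 2 fell in the set of 6 and 3 rose and 1 fell in the set of 12, with medians of −0.25 and −0.18. Spop, an adaptor of a ubiquitin ligase, had the largest rise of the list, 2.79 ± 0.0702 (adjusted p = 2.77e-11, limma) and 3.32 ± 0.0701 (adjusted p = 5.93e-07, limma). Skp2, the F-box protein of another ligase, rose by 1.30 and 1.82. The deubiquitinases moved apart, with Usp36 up by 0.69 and 0.66 and Usp28 down, at −0.82 and −1.04.

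For the branch of MLX, all 4 listed glucose-response genes were in the table, of which 2 rose and 0 fell in the set of 6 and 1 rose and 1 fell in the set of 12, with medians of 0.67 and −0.19. Txnip, the best known of them and an inhibitor of glucose uptake, rose by 1.12 ± 0.178 (adjusted p = 1.41e-04, limma) and 1.47 ± 0.121 (adjusted p = 1.07e-04, limma). Its relative Arrdc4 rose by 1.09 in the set of 6 and had a value of −0.02 in the set of 12, a difference between the sets of −1.10 (adjusted p = 3.88e-05, limma). Klf10, a zinc finger factor, fell by 1.03 in the set of 12 and had a value of −0.48 in the set of 6.

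Other E-box factors of the same structural class were 9 of 9 in the table, of which 2 rose and 3 fell in either set, with medians of −0.0019 and 0.041. Tfap4 rose by 1.80 and 1.73, and Srebf1, a regulator of lipid synthesis, by 1.35 and 1.04. The lysosomal regulator Tfeb (−1.07 and −0.82) and its relative Tfec (−0.86 and −0.94) fell. Tfe3, of the same group, fell by 1.12 in the set of 12. Its value in the set of 6 was −0.58 (adjusted p = 2.25e-08, limma), just below the fold cutoff. Mitf, the melanocyte regulator of that group, fell by 0.71 in the set of 6 and had a value of 0.04 in the set of 12, a difference between the sets of 0.75 (adjusted p = 8.14e-06, limma).

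**Figure D5:**
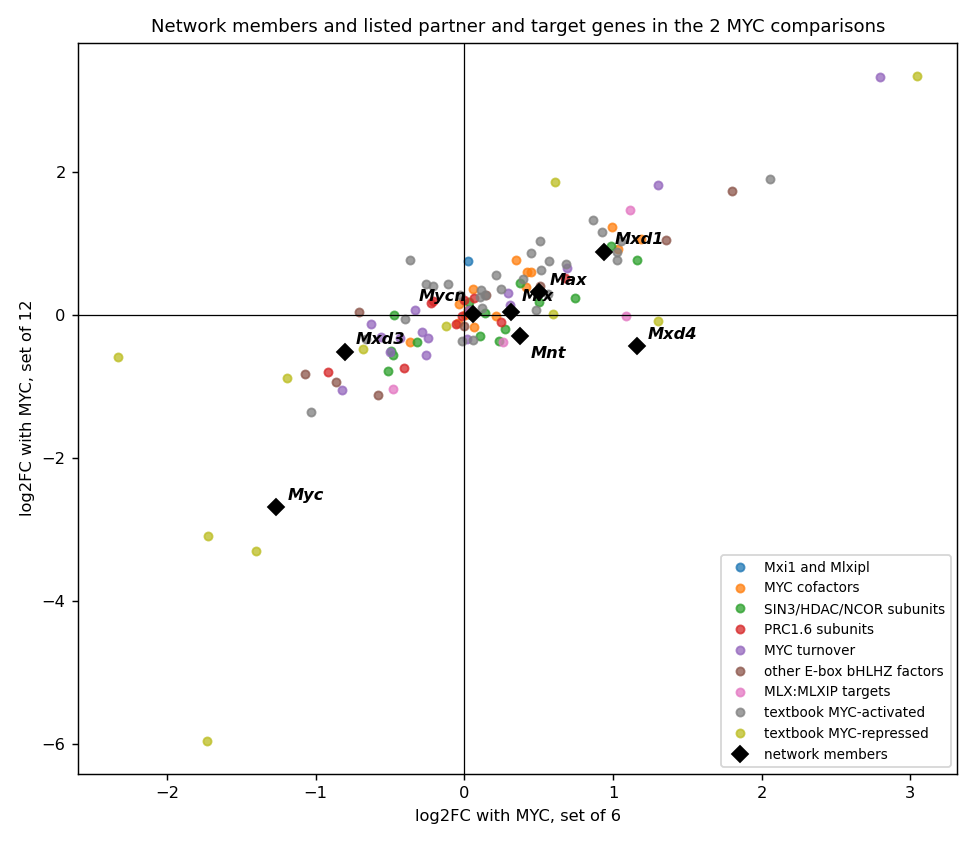
Log2 fold change with MYC in the set of 6 (horizontal axis) and in the set of 12 (vertical axis) for the 8 network genes (black diamonds) and 112 listed genes of the pathway (coloured points). Spop lies at 2.79 and 3.32, Ndrg1 at 3.05 and 3.34 and Col1a1 at −1.73 and −5.95, and Mxd4, at 1.16 and −0.43, is one of the points whose sign differs between the axes.

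Of textbook genes that MYC raises, 30 of 31 were in the table, of which 7 rose and 2 fell in the set of 6 and 12 rose and 1 fell in the set of 12, with medians of 0.23 and 0.43. The transferrin receptor gene Tfrc rose by 2.05 and 1.91, the nucleolar gene Npm1 by 1.06 and 1.03, and Cad, of pyrimidine synthesis, by 0.87 and 1.32. Cdk4, Polr1b, Rcc1 and Tert were also called higher in both. Ccnd2, a cyclin gene in the same list, fell (−1.03 and −1.35). Ldha, of glycolysis, rose by 0.77 in the set of 12 and had a value of −0.36 in the set of 6, a difference between the sets of 1.13 (adjusted p = 5.19e-10, limma).

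Of textbook genes that MYC lowers, 11 of 13 were in the table, of which 4 rose and 6 fell in the set of 6 and 2 rose and 5 fell in the set of 12, with medians of −0.68 and −0.47. Cdkn1a, which encodes a cell cycle inhibitor, fell (−2.33 and −0.59), in the set of 12 just past the fold cutoff. The difference between the sets was 1.74 (adjusted p = 2.81e-10, limma). The matrix genes Col1a1 (−1.73 and −5.95) and Thbs1 (−1.40 and −3.30) and the receptor gene Pdgfrb (−1.72 and −3.08) also fell. Their differences between the sets, of −4.22, −1.90 and −1.36, were called as well. Col3a1, another collagen gene, rose by 1.30 in the set of 6 and had a value of −0.08 in the set of 12. The sets differed for it by −1.39 (adjusted p = 7.27e-11, limma). Cebpa was called lower in both as well, at −1.19 and −0.88. Ndrg1 and Ndrg2, listed here for repression by MYC proteins, went the other way, by 3.05 and 3.34 and by 0.61 and 1.86. For Ndrg2 the sets differed by 1.25 (adjusted p = 6.79e-09, limma). Col1a1, Col3a1 and Pdgfrb are also among the fibroblast markers given above.

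With the siRNAs against Ahr, limma called 0 of the 112 listed genes with siAHR-2, and 5 with siAHR-5, where 0.47% and 2.33% of all genes were called. At an unadjusted p below 0.05 the counts were 57, beside 40.4% of all genes, and 76, beside 47.8%. The cofactor gene Ruvbl1 fell by 0.68 ± 0.0281 (adjusted p = 2.04e-04, limma) with siAHR-5, and Fbxl14, of an F-box ubiquitin ligase, by 0.63 ± 0.0371 (adjusted p = 3.71e-04, limma). Cdkn1a rose by 1.07 ± 0.0482 (adjusted p = 2.26e-04, limma), Cebpa by 0.76 ± 0.108 (adjusted p = 0.00389, limma), and Ndrg1 fell by 0.85 ± 0.0271 (adjusted p = 1.13e-04, limma). In the MYC comparison of the same set, which shares the siCtrl libraries, the values of Ruvbl1, Fbxl14, Cdkn1a, Cebpa and Ndrg1 were 0.93, −0.56, −0.59, −0.88 and 3.34.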

How the data were processed

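RNA-seq was measured in 18 rat libraries. Per the labels and the paper's methods, the authors assessed read quality (NGS-QC-Toolkit), aligned with HISAT2 2.1.0 to rn6, dropped genes below 10 reads in total and used DESeq2 for normalization. The counter and annotation are not given in the sources used here. The authors deposited log2 values for 13188 genes under the name log CPM, but their linear sums were 86.3 to 161 times what CPM would give in a library, and the transformation, the depth and its precision are unknown. Strand handling is not stated, and genes that overlap others could not be checked.

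Columns were matched to samples by the descriptions in the labels. Differences were tested with limma 3.58.1 in R 4.3.3 on the deposited log2 values, with a mean-variance trend, only the groups compared in a fit, and Benjamini-Hochberg adjustment over all genes. The difference between sets was the interaction contrast of 4 groups. On simulated data with 200 genes changed by a log2 fold change of 1, 199 (MYC, set of 6) and 181 (MYC, set of 12) were recovered, with 0 false calls in each. The simulated noise was independent between libraries, with no scale shift and no shared batch. It therefore checks the code and does not measure the error rate in these data. All network genes are named; other genes of the pathway lists could be named where called the same way with MYC in both sets, extreme within a list in a comparison, or called with an siRNA against Ahr. The network genes and lists were chosen with earlier results of these data known. Promoters and motifs were read with Python 3.11.15.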

Additional observations from a re-analysis of the deposited data

Results flagged for a closer look

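The response to MYC differed between the set of 12 and the set of 6 for 3 network genes by the interaction test in limma. The difference was −1.42 for Myc, whose row fell in both sets, −1.59 for Mxd4, which rose in the set of 6 alone, and −0.68 for Mnt. The interaction adjusted p-values were 2.85e-08, 9.84e-10 and 1.08e-07 in limma. By the labels, MYC and transfection changed together in either set, on opposite sides, and cannot be told apart here. Whether the transfection labels of the myc-/- groups are right was not tested, and if they were exchanged, transfection would not differ within either comparison. It would then differ between the sets. Under either reading, anything else that differed between the sets, such as their scale, cannot be told apart from this contrast.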

How the results depend on the processing

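Of 650 log2 fold changes of network genes recomputed under the alternatives, 610 kept their direction and side of the cutoffs, 22 came to pass with the study's false discovery rate of 5% and no fold cutoff, 1 lost its call and 17 changed sign. Leaving out any 1 library changed no call of a network gene. With an adjusted p below 0.05 and no fold cutoff, limma passed 8, 6, 4, 4, 6 and 4 network genes, 91, 85, 47, 66, 64 and 65 listed genes, and 10051, 8538, 3860, 5169, 7235 and 5151 genes in all, for MYC in the set of 6, MYC in the set of 12, siAHR-2, siAHR-5, the difference between sets, and siAHR-5 against siAHR-2. The main cutoffs gave 3538, 3361, 62, 307, 2171 and 287 genes.

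With the replicate block, the log2 fold change of Mxd3 with siAHR-2 was the same, 0.70, but its call was lost (adjusted p = 0.0127, limma). In that fit siAHR-2 called 0 network genes and 0 genes in all. There 5 network genes and 5030 genes had an unadjusted p below 0.05 in limma, and the lowest adjusted p was 0.0126. Deviations of libraries with the same number correlated at −0.26 to 0.24, which does not show a pairing by number. Whether libraries with the same number were prepared together is not stated, and these values cannot settle it. The replicate block changed no other call of a network gene.

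The values that changed sign were small and uncalled. Median centring gave −0.010 for Mycn with siAHR-2, −0.027 for Max and −0.040 for Mnt with siAHR-5, 0.049 for Mycn and 0.031 for Mxd1 in the difference between sets, and −0.027 for Max between the siRNAs. Quantile normalization gave 0.0058 for Mycn in the difference between sets and −0.0052 for Max between the siRNAs. Leaving out 1 library each gave −0.0048 to 0.041 for Mycn, −0.040 to 0.0056 for Mnt and −0.0092 to 0.060 for Max with siAHR-2, −0.0075 to 0.061 for Max with siAHR-5, −0.091 to 0.0073 for Mxd1 between sets, and −0.087 to 0.0085 for Myc and −0.013 to 0.018 for Max between the siRNAs. The cause was not tested.

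Of all genes called, the share higher was 33.9% with siAHR-2 and 22.1% after median centring, 63.5% with siAHR-5 against 50.2% after quantile normalization and 45.9% after median centring, and 41.3% for the difference between sets against 52.6% after median centring. For MYC it went from 46.7% to 51.7% in the set of 6 and from 42.4% to 52.0% in the set of 12 after quantile normalization, and to 42.2% and 47.2% after median centring. The low-value filter left Mycn out. Depth is unknown, and 3 libraries a group limit the precision.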
